A study of Mus musculus with 4 samples.

Results

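The genes described here are 10 members of the immediate-early programme: the AP-1 subunits Fos, Fosb, Fosl2, Jun, Junb and Jund, the early growth response factor Egr1, the related factors Ier2 and Atf3, and the phosphatase gene Dusp1. They were taken by gene symbol, with earlier results of these data known, and all 10 were found among the 28987 genes of the table. RNA sequencing had been done on c-Kit-positive (CD117 bead-selected) bone marrow cells of C57BL/6 mice. The Hif1a-null group, 2 libraries, carried an Mll partial tandem duplication on one allele opposite a wild-type allele, with both Runx1 and Hif-1 alpha homozygous for floxed alleles and the Mx1-Cre transgene. The Hif1a-intact group, also 2 libraries, had the same Mll duplication, floxed Runx1 and Mx1-Cre but no floxed Hif-1 alpha. All 4 libraries thus shared the Mll duplication and a Runx1-null label, and no library was labelled wild type. Mx1-Cre is driven by an interferon-inducible promoter that is not restricted to blood stem cells. The sources used here do not give age, sex, Cre induction, pooling or the time between marrow flushing and lysis. They also do not say whether replicates were different animals, and the p-values cover whatever spread lies between 2 libraries, which may be technical.

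Immediate-early genes are transcribed within minutes of a stimulus, without new protein synthesis, when MAP kinases activate factors already bound at their promoters, such as serum response factor at CArG boxes and CREB at cyclic AMP response elements (CREs). Their products include the bZIP proteins that make up AP-1. Jun proteins pair with each other or with Fos proteins, whereas Fos proteins need a Jun partner. In blood-forming tissue these genes act in myeloid differentiation and the control of proliferation, and in many tissues they are also induced while cells are being isolated.

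In these marrow cells the transcripts were low to moderate, and no member passed the test between genotypes. Among the members that reached the filter for testing, Fos and Junb had the lowest adjusted p-values, with both Hif1a-null libraries below both Hif1a-intact libraries. When the filter was dropped, Egr1, which was higher in Hif1a-null libraries, had the lowest adjusted p-value of the members. Jun, Egr1, Atf3 and Fosb stayed under 1 TPM in all 4 libraries, and the other members were above it in all 4. TPM is a transcript abundance scaled by length and to a fixed total per library, so levels can be compared between genes. It keeps no read counts, so the depth behind each value is unknown and no counting interval can be given.

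Promoters are shown for Fos and Junb, the members whose difference between genotypes had an interval that left out 0, and for Dusp1, the member whose promoter held a complete CRE. Each runs 5′ to 3′ from 250 bases before to 50 bases after the start site, from RefSeq on GRCm38.p6. Capitals mark the CRE core TGACG and the core of the HIF binding element (ACGTG or GCGTG), on either strand.
Fos, chr12:85473640-85473939, plus strand: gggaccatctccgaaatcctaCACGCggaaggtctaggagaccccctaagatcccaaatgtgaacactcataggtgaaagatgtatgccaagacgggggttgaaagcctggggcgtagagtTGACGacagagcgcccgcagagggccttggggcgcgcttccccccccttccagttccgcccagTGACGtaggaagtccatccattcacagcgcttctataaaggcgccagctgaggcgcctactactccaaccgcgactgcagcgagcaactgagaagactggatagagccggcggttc
Junb, chr8:84978699-84978998, minus strand: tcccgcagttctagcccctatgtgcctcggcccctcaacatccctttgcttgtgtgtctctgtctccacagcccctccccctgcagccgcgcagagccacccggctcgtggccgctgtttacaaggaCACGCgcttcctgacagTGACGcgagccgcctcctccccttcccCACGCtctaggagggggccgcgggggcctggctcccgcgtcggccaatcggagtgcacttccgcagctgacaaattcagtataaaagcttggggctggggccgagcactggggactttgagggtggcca
Dusp1, chr17:26508423-26508722, minus strand: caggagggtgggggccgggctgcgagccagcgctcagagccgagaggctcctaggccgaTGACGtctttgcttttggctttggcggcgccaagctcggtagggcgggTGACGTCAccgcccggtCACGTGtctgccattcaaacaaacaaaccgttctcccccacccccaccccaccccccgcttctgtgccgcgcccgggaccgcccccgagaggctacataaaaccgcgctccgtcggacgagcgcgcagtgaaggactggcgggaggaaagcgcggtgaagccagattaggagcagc

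Promoter sequences were searched for 8 members; those of Ier2 and Egr1 are not shown. TGACG was found in 5 of the 8 (Fos, Fosb, Junb, Atf3 and Dusp1), against 20.8% of 32817 mouse promoters of the same length. In Fos it began 129 and 66 bases before the start site and in Junb 106 bases before it. The complete CRE, TGACGTCA, which contains TGACG on both strands, was in Dusp1 only among the 8, beginning 143 bases before the start, and in 1.8% of all promoters. The HIF core was found in 6 of the 8 (all but Jun and Fosl2), against 43.8% of all promoters; in Dusp1 it was read on both strands of the same CACGTG. The AP-1 site TGANTCA and the CArG box were in 0 of the 8 windows, against 7.8% and 1.6% of all promoters. Sequence more than 250 bases before the start site was not searched, so elements further upstream are not covered. The RefSeq start was the 5′ end of the GENCODE gene span in Fos and Jun. It lay 1210 bases before that span in Jund and 30 bases before it in Junb. In Fosb, Fosl2, Atf3 and Dusp1 it lay 6, 671, 34706 and 53656 bases inside the span. These matches describe letters in a window of 300 bases and are not evidence of binding.

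Before the members, the libraries themselves were compared. Hif1a read 98.8 and 113 TPM in Hif1a-null libraries, against 100.3 and 75.2 TPM in Hif1a-intact libraries (limma, adjusted p = 0.479). TPM summed per gene also counts exons outside the floxed stretch and does not check the deletion, so directions rest on the labels, and the same holds for Runx1. Runx1 read 48.4 and 46.7 TPM in Hif1a-null libraries, against 73.6 and 76.6 TPM in Hif1a-intact libraries (limma, adjusted p = 0.0636). Kit, which encodes the antigen used for the selection, and the progenitor marker Cd34 read 102 to 121 and 179 to 206 TPM in Hif1a-null libraries, against 126 to 128 and 244 to 251 TPM in Hif1a-intact libraries. The Hif1a-intact libraries were less alike: the median gene differed by 0.12 on the log2(TPM + 1) scale between the Hif1a-null libraries and by 0.26 between the Hif1a-intact libraries. For the 6 members tested, the same medians were 0.070 and 0.38.

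**Figure D1:**
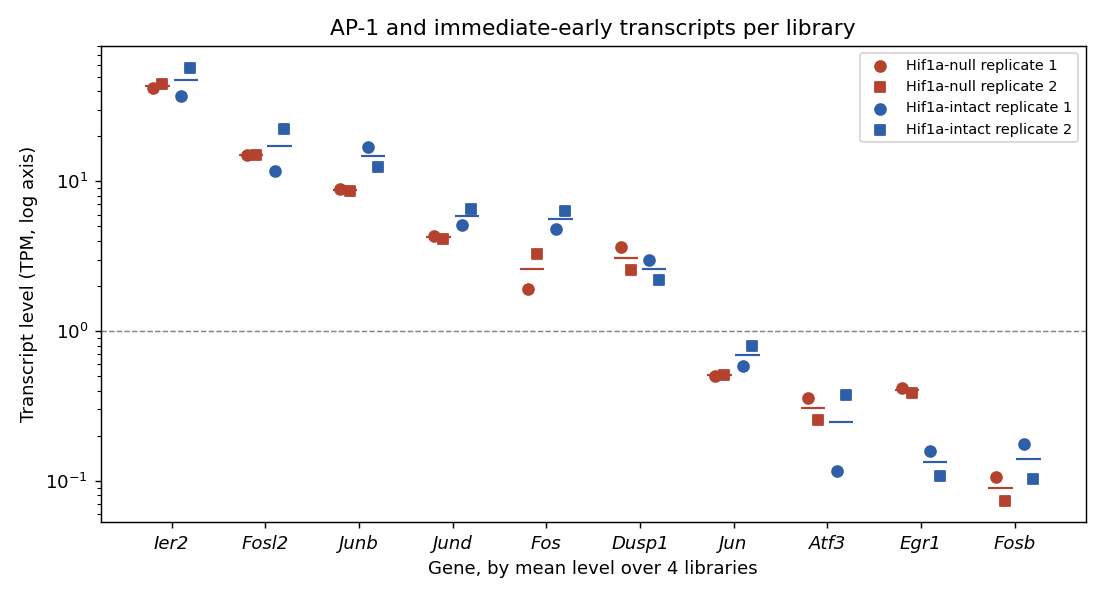
Level of each member (TPM, log axis) in every library, genes ordered by their mean over 4 libraries; circles and squares are replicates 1 and 2, and short lines are group means of 2 libraries. Ier2 lies highest at 37.0 to 57.4 TPM, and Jun, Atf3, Egr1 and Fosb lie under the dashed line at 1 TPM.

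The members spanned a wide range of levels. Ier2 was highest with a mean of 45.3 TPM over the 4 libraries, more than 78.3% of the 11909 genes tested. Fosl2 (16.1 TPM) and Junb (11.7 TPM) followed, near the middle of tested genes, with 52.6% and 44.5% of them lower. The next were Jund (5.03 TPM), Fos (4.10 TPM) and Dusp1 (2.84 TPM), and the last were Jun (0.598 TPM), Atf3 (0.276 TPM), Egr1 (0.268 TPM) and Fosb (0.115 TPM). The ranges over 4 libraries overlapped between Fosl2 and Junb, between Jund and Fos, between Fos and Dusp1, between Atf3 and Egr1 and between Egr1 and Fosb. They did not overlap between Ier2 and Fosl2, Junb and Jund, Dusp1 and Jun, or Jun and Atf3. The 7 highest kept their order in each library except for Fosl2 and Junb, which changed places in Hif1a-intact replicate 1, and Fos and Dusp1, which changed places in Hif1a-null replicate 1.

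The comparison of Hif1a-null with Hif1a-intact libraries asks which transcripts differ with the loss of Hif1a in c-Kit-selected marrow cells. These cells carry the Mll duplication and are labelled Runx1-null. Across all genes 7.27% passed (limma on log2(TPM + 1), adjusted p under 0.05), 5.25% as higher and 2.02% as lower in Hif1a-null libraries. Of the members 6 had at least 1 TPM in at least 2 libraries and were tested. Of these 0 passed, and 2, Fos and Junb, had an unadjusted p under 0.05, as did 23.2% of all tested genes. The median log2 fold change was -0.24 over the 6 tested members and -0.06 over all tested genes, and 1 of the 6 lay above 0, against 42.5% of all tested genes. The groups did not overlap for 3 of the 6 tested members (Fos, Junb and Jund, all lower in Hif1a-null), against 55.0% of all tested genes in either direction and 32.3% that were lower in Hif1a-null. Across all genes 19 passed without Hif1a-null replicate 1 and 0 without Hif1a-null replicate 2 (limma; 958 then had an unadjusted p under 0.05). With 2 libraries against 2, an exact permutation test on a single gene cannot give a two-sided p below 0.333.

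Among the Fos family, Fos (ENSMUSG00000021250, GRCm38 chromosome 12, 85473890 to 85477273), which encodes the rapidly induced AP-1 subunit c-Fos, read 1.92 and 3.28 TPM in Hif1a-null libraries, against 4.81 and 6.38 TPM in Hif1a-intact libraries. Both Hif1a-null libraries were lower, and the 2 of them differed from each other by 1.71-fold. The log2 fold change of Fos was -0.89 (standard error 0.26, 95% interval -1.59 to -0.20; limma, adjusted p = 0.144). Fosl2 (ENSMUSG00000029135, chromosome 5, 32135801 to 32157842), which encodes Fra-2, a longer-lived subunit that lacks the strong activation domain of c-Fos, read 15.0 and 15.1 TPM in Hif1a-null libraries, against 11.7 and 22.5 TPM in Hif1a-intact libraries. The Hif1a-intact libraries lay on either side of the Hif1a-null ones and 1.93-fold apart. The log2 fold change of Fosl2 was -0.11 with a 95% interval of -1.005 to 0.79 (limma, adjusted p = 0.89), and without Hif1a-intact replicate 2 it was 0.34. Fosb (ENSMUSG00000003545, chromosome 7, 19302696 to 19310051), of which a splice form accumulates under repeated stimulation in neurons, read 0.106 and 0.0739 TPM in Hif1a-null libraries, against 0.176 and 0.102 TPM in Hif1a-intact libraries, which overlapped.

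Among the Jun family, Junb (ENSMUSG00000052837, chromosome 8, 84974484 to 84978718), an AP-1 subunit known in mice to restrain myeloid proliferation, was the most abundant. Junb read 8.91 and 8.60 TPM in Hif1a-null libraries, against 16.9 and 12.5 TPM in Hif1a-intact libraries. Both Hif1a-null libraries were lower and close to each other, while the Hif1a-intact libraries were 1.35-fold apart. The log2 fold change of Junb was -0.67 (standard error 0.19, 95% interval -1.18 to -0.16; limma, adjusted p = 0.137). Junb shares 173 of its 2301 annotated exon bases with Prdx2, a peroxiredoxin gene on the opposite strand that is abundant in red cells. Prdx2 was called higher, at 156 and 162 TPM in Hif1a-null libraries, against 52.3 and 52.8 TPM in Hif1a-intact libraries (log2 fold change 1.58; limma, adjusted p = 0.0097). The strand setting is not given, so reads in the shared bases cannot be assigned to either gene with certainty.

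Jund (ENSMUSG00000071076, chromosome 8, 70698949 to 70700616), the subunit present in most resting cells, read 4.34 and 4.13 TPM in Hif1a-null libraries, against 5.10 and 6.55 TPM in Hif1a-intact libraries. The groups did not overlap, but the 95% interval of the log2 fold change, -0.82 to 0.070 around -0.37, held 0 (limma, adjusted p = 0.276). Jund shares 877 of 1668 exon bases with the antisense gene Gm11175, which was listed at 0 in both Hif1a-null libraries and read 0.106 and 0.196 TPM in Hif1a-intact libraries; summed with it, the log2 fold change was -0.40. Jun (ENSMUSG00000052684, chromosome 4, 95049034 to 95052222), the founding member of the family and a strong transcriptional activator, read 0.505 and 0.511 TPM in Hif1a-null libraries, against 0.581 and 0.794 TPM in Hif1a-intact libraries. The groups did not overlap, and Jun was under the level needed for the test. The antisense gene Junos, which shares 232 of 3189 exon bases with Jun, exceeded it in every library, at 8.35 and 10.9 TPM in Hif1a-null libraries, against 4.94 and 5.43 TPM in Hif1a-intact libraries (limma, adjusted p = 0.0932).

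**Figure D2:**
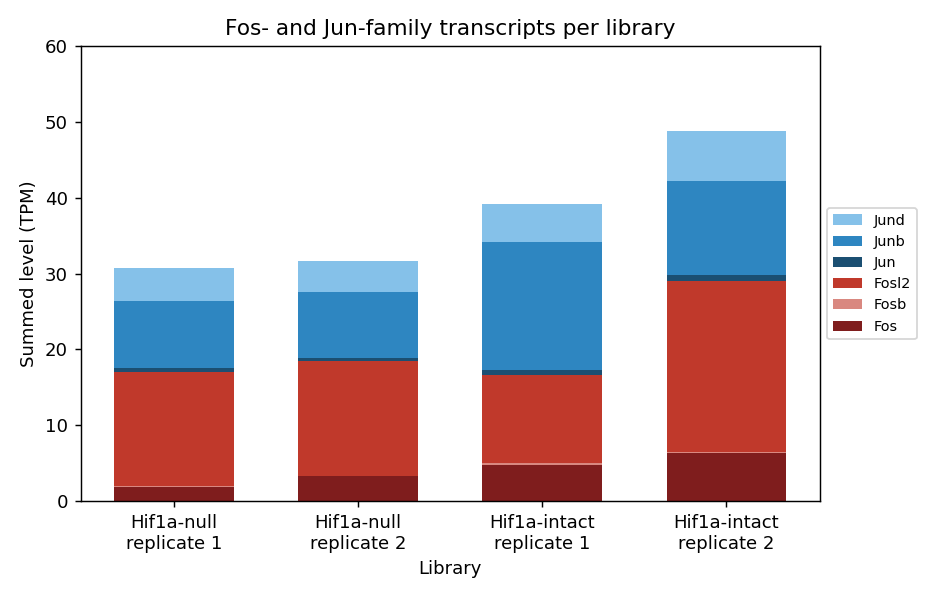
Summed level (TPM) of the 3 Fos-family (red) and 3 Jun-family (blue) genes in each library, stacked by gene. The sums are 30.8 and 31.7 TPM in Hif1a-null libraries and 39.2 and 48.8 TPM in Hif1a-intact libraries, and Fosl2 and Junb make up most of each bar.

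The 6 AP-1 subunits summed to 30.8 and 31.7 TPM in Hif1a-null libraries, against 39.2 and 48.8 TPM in Hif1a-intact libraries. Both Hif1a-null libraries lay below both Hif1a-intact libraries, and the Hif1a-intact libraries differed more from each other. Of single tested genes, 55.0% did not overlap between the groups either. The sum over all 10 members did overlap, at 77.4 and 79.6 TPM in Hif1a-null libraries, against 79.5 and 109 TPM in Hif1a-intact libraries. Fosl2 made up 48.7% and 47.6% of that sum in Hif1a-null libraries, against 29.7% and 46.1% in Hif1a-intact libraries. Junb made up 29.0% and 27.2% in Hif1a-null libraries, against 43.1% and 25.6% in Hif1a-intact libraries. Hif1a-intact replicate 1 thus stood apart from the other 3 libraries, with a ratio of Fos-family to Jun-family sums of 0.738; the ratio was 1.24 and 1.39 in Hif1a-null libraries and 1.46 in Hif1a-intact replicate 2. Jun made up 1.48% to 1.64% of the sum in all 4 libraries.

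Of the factors outside AP-1 proper, Ier2 (ENSMUSG00000053560, chromosome 8, 84661331 to 84662852), a small nuclear protein induced by growth factors, read 42.2 and 44.7 TPM in Hif1a-null libraries, against 37.0 and 57.4 TPM in Hif1a-intact libraries. The groups overlapped, and the log2 fold change of -0.08 had a 95% interval of -0.76 to 0.59 (limma, adjusted p = 0.882). Hif1a-intact replicate 2 held the highest value of 6 of the 10 members, Ier2 and Fosl2 among them. Hif1a-intact replicate 1 and Hif1a-null replicate 1 held 2 each and Hif1a-null replicate 2 held 0. Without Hif1a-intact replicate 2, the log2 fold change of Ier2 was 0.23. Atf3 (ENSMUSG00000026628, chromosome 1, 191170296 to 191218039), a stress-induced bZIP factor that pairs with Jun proteins, read 0.358 and 0.254 TPM in Hif1a-null libraries, against 0.117 and 0.376 TPM in Hif1a-intact libraries, and the groups overlapped. Dusp1 (ENSMUSG00000024190, chromosome 17, 26505590 to 26562128), which encodes a nuclear phosphatase that switches off p38 and JNK, read 3.63 and 2.55 TPM in Hif1a-null libraries, against 3.0 and 2.20 TPM in Hif1a-intact libraries. The Dusp1 values overlapped, with a log2 fold change of 0.18 and a 95% interval of -0.39 to 0.75 (limma, adjusted p = 0.678). It was -0.011 without Hif1a-null replicate 1.

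The groups did not overlap for 5 of the 10 members, against 55.0% of all tested genes, a share that does not cover the untested Egr1 and Jun. Of these 5, only Egr1 (ENSMUSG00000038418), a zinc-finger factor known in mice to keep blood stem cells quiescent, was higher in Hif1a-null libraries. Egr1 read 0.419 and 0.387 TPM there, against 0.158 and 0.108 TPM in Hif1a-intact libraries, a ratio of means of 3.03. These levels lie under 1 TPM, so Egr1 did not enter the test, and the reads behind them are unknown. When every gene above 0 in any library was fitted, 2.83% of all genes were called and 0 of the 10 members. Egr1 then had a log2 fold change of 0.31 (limma, adjusted p = 0.144, against 0.18 for Junb and 0.216 for Fos in that fit). With a pseudocount of 0.1 in place of 1 the log2 fold change of Egr1 was 1.12 (limma, adjusted p = 0.107, against 0.252 for Junb and 0.265 for Fos).

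**Figure D3:**
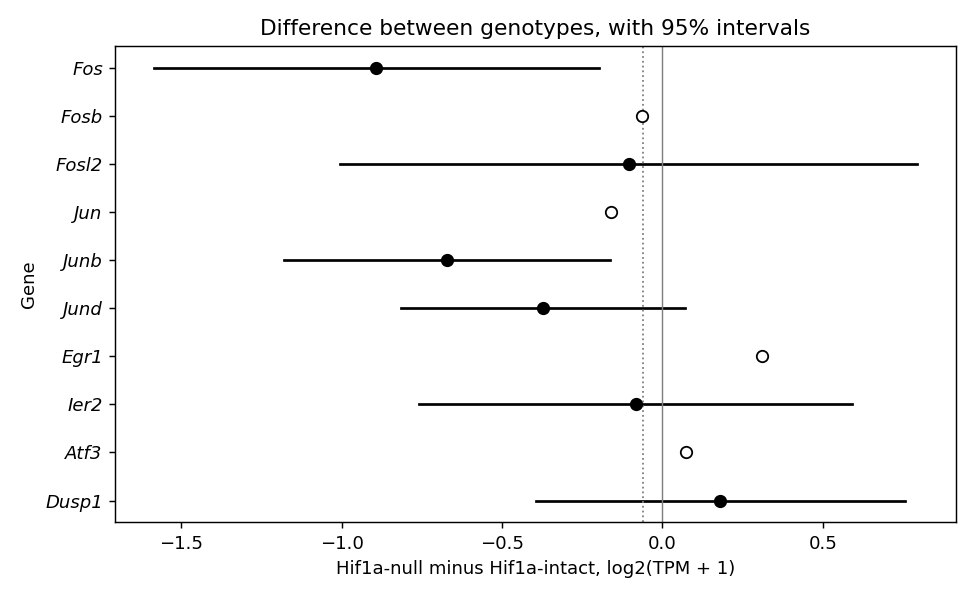
Difference of each member between Hif1a-null and Hif1a-intact libraries on the log2(TPM + 1) scale; filled points are tested genes with 95% limma intervals (n = 2 libraries per group), open points are members under the filter, and the dotted line is the median of all tested genes, -0.06. The intervals of Fos and Junb leave out 0, and 0 members passed after adjustment over all genes.

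Genes that work with the members were described from lists chosen with the members. Of 40 other immediate-early genes 29 were tested; 3 were called higher, 2 lower and 24 were not called, against 7.27% of all tested genes called (5.25% higher and 2.02% lower), with a median log2 fold change of -0.07. Sgk1, a serum-induced kinase gene, rose, with 11.1 and 9.37 TPM in Hif1a-null libraries against 3.63 and 4.24 TPM in Hif1a-intact libraries (log2 fold change 1.19; limma, adjusted p = 0.0284). Gadd45g, which encodes a stress-signalling protein, rose too, with 3.60 and 4.05 TPM in Hif1a-null libraries against 1.54 and 1.21 TPM in Hif1a-intact libraries (log2 fold change 1.03; limma, adjusted p = 0.0341). Nr4a1, an orphan nuclear receptor gene, read 1.58 and 1.63 TPM in Hif1a-null libraries and 0.577 and 0.565 TPM in Hif1a-intact libraries, so it was tested only through its Hif1a-null values (log2 fold change 0.73; limma, adjusted p = 0.0471). In the other direction Gadd45b, a paralog of Gadd45g, fell to 4.16 and 3.65 TPM in Hif1a-null libraries, against 12.0 and 9.17 TPM in Hif1a-intact libraries (log2 fold change -1.23; limma, adjusted p = 0.0355). Per1, a circadian clock gene that is also CREB-inducible, fell to 2.003 and 2.38 TPM in Hif1a-null libraries, against 4.99 and 6.58 TPM in Hif1a-intact libraries (log2 fold change -1.08; limma, adjusted p = 0.0462).

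Among upstream and feedback genes, Dusp6, the cytoplasmic phosphatase of ERK and the only called gene of 6 tested phosphatases, fell to 11.9 and 11.1 TPM in Hif1a-null libraries, against 21.4 and 27.4 TPM in Hif1a-intact libraries (log2 fold change -1.01; limma, adjusted p = 0.0499). Its call was lost in 11 of 15 alternatives. Of 25 tested MAP kinase and serum response factor genes, Mapk12 (p38 gamma) alone was called, at 2.06 and 1.81 TPM in Hif1a-null libraries, against 9.97 and 7.14 TPM in Hif1a-intact libraries (log2 fold change -1.69; limma, adjusted p = 0.0218). The median over those 25 genes was -0.15, and the counts of 1 of 6 and 1 of 25 stand against 7.27% of all tested genes. Of 10 tested bZIP partners 0 were called (limma; 2 had an unadjusted p under 0.05): Maf read 1.005 and 1.34 TPM in Hif1a-null libraries, through which alone it was tested, against 0.470 and 0.316 TPM in Hif1a-intact libraries, and Jdp2, which encodes a repressor of AP-1, 12.1 and 11.0 TPM in Hif1a-null libraries, against 16.9 and 21.5 TPM in Hif1a-intact libraries. Maf shares 440 of 8241 exon bases with the opposite-strand gene Gm15655 and Jdp2 165 of 2148 with Gm47863, and Mapk12 holds stretches of up to 136 bases that are near-identical to small RNA genes not analysed here. Each of the 9 list genes called lost its call in 3 to 11 of its alternatives, and 8 of them did so without either Hif1a-null library; Nr4a1 was not tested there.

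Heat shock genes, which respond to protein-damaging stress, were given beside the members because both sets are known to respond to cell handling. Of 12 tested, 1 was called higher and 1 lower, against 5.25% and 2.02% of all tested genes, with a median log2 fold change of -0.13. Dnajb4, a co-chaperone gene, rose, with 15.3 and 14.8 TPM in Hif1a-null libraries against 5.89 and 7.38 TPM in Hif1a-intact libraries (limma, adjusted p = 0.0349). Hspa1b, an inducible HSP70 gene, read 0.224 and 0.0228 TPM in Hif1a-null libraries and 1.24 and 1.44 TPM in Hif1a-intact libraries, so it was tested only through the Hif1a-intact values (limma, adjusted p = 0.036). Hspa1b shares 2201 near-identical bases with Hspa1a, so the split between the 2 genes is uncertain; Hspa1a was at or under 0.132 TPM in all 4 libraries. Hsp90aa1, a stress-responsive chaperone gene singled out after its values were seen, read 6061 and 5889 TPM in Hif1a-null libraries, against 5025 and 15041 TPM in Hif1a-intact libraries. Its high value rested on Hif1a-intact replicate 2. In that library Hspa5 (528 TPM), Hspa1b (1.44 TPM) and Hspa1a (0.132 TPM) were also highest. Hspe1 (35.3 TPM), Dnajb1 (31.1 TPM) and Hsf1 (5.67 TPM) were lowest there. The other genes of the list that were above 0 lay in between. The part of these levels in the members' differences was not tested.

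**Figure D4:**
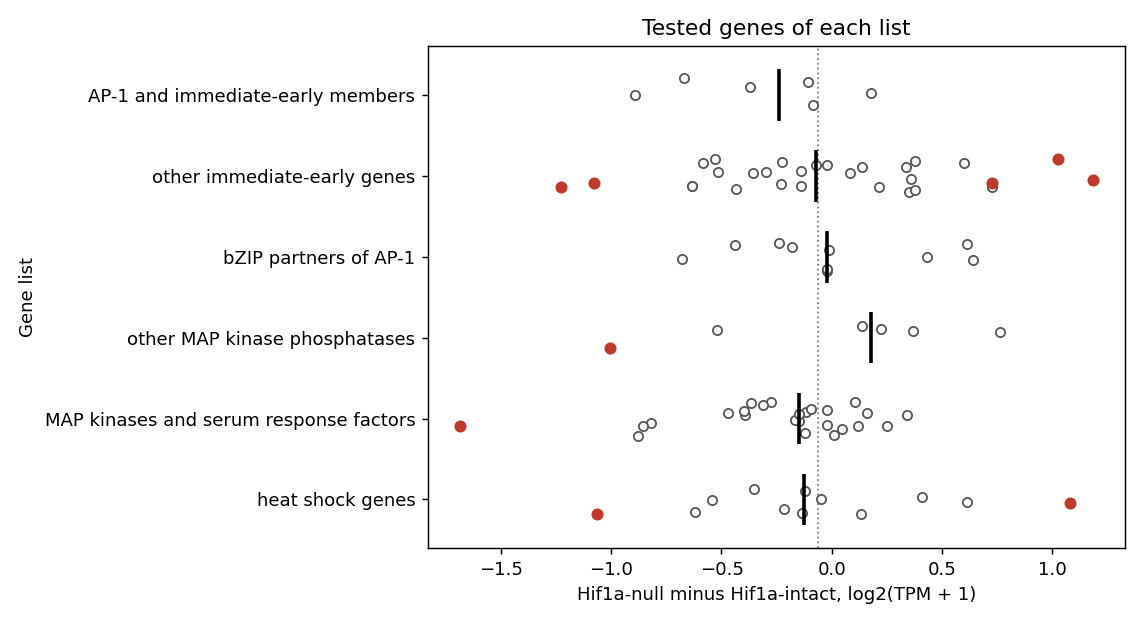
Log2 fold change (Hif1a-null minus Hif1a-intact, log2(TPM + 1)) of every tested gene of each list; red points passed the limma test at an adjusted p under 0.05, open points did not, black bars are list medians and the dotted line is the median of all tested genes. The members' median is -0.24 with 0 called, and the other lists have medians between -0.15 and 0.18.

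Markers of other cell types moved with genotype beside all of these results. In bulk RNA, fewer cells of a type and less RNA per cell cannot be told apart. The 7 erythroid markers summed to 5471 and 5908 TPM in Hif1a-null libraries, against 99.2 and 68.9 TPM in Hif1a-intact libraries, and all 7 were called higher. Megakaryocyte markers summed to 107 and 128 TPM in Hif1a-null libraries, against 26.6 and 24.6 TPM in Hif1a-intact libraries, with 5 of 6 called higher. B cell markers (22.0 TPM in both Hif1a-null libraries, against 10.8 and 6.48 TPM in Hif1a-intact libraries) and T and NK cell markers (170 and 197 TPM in Hif1a-null libraries, against 183 and 290 TPM in Hif1a-intact libraries) each had 4 of 5 tested called higher. Of the tested markers 3 erythroid, 1 megakaryocyte, 4 B cell and 3 T and NK cell genes reached the filter only through the Hif1a-null libraries, so those could only be higher there. Most of the T and NK cell sum was Nkg7, at 122 and 144 TPM in Hif1a-null libraries, against 177 and 284 TPM in Hif1a-intact libraries. Nkg7 was the tested gene of that list that was not called. Pax5, Cd3e and Cd3g were listed at 0 in Hif1a-intact replicate 1. Granulocyte markers summed to 26507 and 25894 TPM in Hif1a-null libraries, against 24173 and 20845 TPM in Hif1a-intact libraries, with 3 of 7 higher. Monocyte and macrophage markers summed to 467 and 483 TPM in Hif1a-null libraries, against 551 and 515 TPM in Hif1a-intact libraries, with 1 higher and 1 lower of 6 tested. Mast cell and basophil markers summed to 60.2 and 57.4 TPM in Hif1a-null libraries, against 547 and 303 TPM in Hif1a-intact libraries, with 1 of 3 tested lower and Prss34 at 0 throughout. The 1 lower was Cpa3, which made up most of that sum (42.3 and 42.4 TPM in Hif1a-null libraries, against 526 and 289 TPM in Hif1a-intact libraries). Ms4a2 and Mcpt8 were not called. Stromal and endothelial markers summed to 71.8 and 81.2 TPM in Hif1a-null libraries, against 56.0 and 49.9 TPM in Hif1a-intact libraries, with 2 higher and 1 lower of 7, and progenitor markers to 523 and 533 TPM in Hif1a-null libraries, against 661 and 714 TPM in Hif1a-intact libraries, with 0 of 5 called (limma; 2 had an unadjusted p under 0.05). The most abundant marker of each list was Hbb-bs (erythroid), Ppbp (megakaryocyte), Cd79b (B cell), Nkg7 (T and NK cell), Camp (granulocyte), F13a1 (monocyte), Cpa3 (mast cell), Pecam1 (endothelial) and Myb (progenitor). The part of these cell types in the members' values was not tested.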

How the data were processed

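The authors deposited 1 table of TPM values per Ensembl gene and library. Per the submitters' processing notes it was made with kallisto and the mm10 build; the sources used here name no version, transcript set or strand setting. The unit was read from the values, since the 4 columns sum to between 955562 and 963135. TPM keeps no counts, so depth per library is unknown, and each value depends on all other transcripts of its library. Symbols and coordinates came from GENCODE vM21 (GRCm38) by Ensembl identifier.

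Groups came from the genotype labels, 2 libraries each, with replicate numbers in accession order and no batch or pairing named. limma 3.58.1 in R 4.3.3 (two-sided, eBayes without trend) was run on log2(TPM + 1) for the 11909 genes that reached 1 TPM in 2 or more libraries (Benjamini-Hochberg adjustment over all of them, threshold 0.05). It was also run on simulated data in which each gene had the same spread in both groups. That run does not cover the unequal spread of the groups seen here. Fold changes understate changes of low genes. The members, the lists and the naming rule were chosen with earlier results of these data known. Named were the members, Hif1a, Runx1, up to 4 called genes per direction of each list by unadjusted p (where 0 were called, the 2 of smallest p) and the most abundant marker of each cell type. Listed symbols that had been renamed were matched through RefSeq synonyms; Atf7 was not analysed here. A blastn 2.17.0 search found near-identical copies (at least 95% identity over 50% of the shorter transcript and 100 bases). Alternatives were other variance models, rescalings, pseudocounts, filters and gene sets, members summed with copies, and each library left out. A pseudocount of 0.1 without a filter was added after seeing the data. Figures used matplotlib 3.10.9.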

Additional observations from a re-analysis of the deposited data

How the results depend on the processing

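The count of members called was 0 of those tested under all alternatives that kept the 4 libraries. No alternative moved the median of all genes by as much as 0.1 on the log2 scale. The number of all genes called was 866; it was 568 with no filter on low values, 493 with a filter at 5 TPM, and ran from 0 to 1019 with 1 library left out (0 without Hif1a-null replicate 2, 19 without Hif1a-null replicate 1). The lone library of a group is then assumed to vary like the other group. Quantile normalization moved the share of higher among called genes from 72.2% to 64.0%. Fos, Junb and Jund stayed below 0 throughout, with log2 fold changes of -1.17 to -0.62, -0.87 to -0.47 and -0.53 to -0.22. With 1 library left out, Fosl2 ran from -0.55 to 0.34, Ier2 from -0.39 to 0.23 and Dusp1 from -0.011 to 0.37. Quantile normalization put Ier2 at 0.014. Members under 1 TPM depended on the pseudocount: with 0.1 and no filter, log2 fold changes were -0.32 for Fosb, -0.36 for Jun, 1.12 for Egr1 and 0.33 for Atf3, against -0.06, -0.16, 0.31 and 0.07 with 1. Called other immediate-early genes numbered 5, and 3, 3, 1 and 2 with a variance trend, quantile normalization, no filter and a filter at 5 TPM; without a library they numbered 0 (either Hif1a-null), 3 (Hif1a-intact replicate 1) and 1 (Hif1a-intact replicate 2). With 1 library left out, calls ran from 0 to 1 for bZIP partners and for phosphatases, 0 to 2 for MAP kinase genes and 0 to 3 for heat shock genes. With protein-coding genes only, 4 MAP kinase and serum response factor genes were called in place of 1, and 2 phosphatases. Causes of these shifts were not tested. Unknown depth limits what can be said of Jun, Egr1, Atf3 and Fosb.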

Other observations

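Levels of paralogs within the lists are given for 3 families, singled out after their values were seen. Of the Gadd45 genes, Gadd45a read 20.8 and 23.1 TPM in Hif1a-null libraries, against 11.4 and 17.4 TPM in Hif1a-intact libraries, and was not called (limma, adjusted p = 0.235), beside the higher Gadd45g and the lower Gadd45b. Of the Nr4a genes, Nr4a2 read 0.716 and 4.14 TPM in Hif1a-null libraries, against 0.407 and 0.862 TPM in Hif1a-intact libraries, so its high value rested on Hif1a-null replicate 2. Nr4a3 read 0.227 and 0.142 TPM in Hif1a-null libraries, against 0.0368 and 0.0230 TPM in Hif1a-intact libraries. Of the 4 p38 kinases, Mapk14 (p38 alpha) was the most abundant, at 156 and 140 TPM in Hif1a-null libraries, against 185 and 182 TPM in Hif1a-intact libraries (limma, adjusted p = 0.266). Mapk13 read 67.7 and 62.6 TPM in Hif1a-null libraries, against 60.4 and 72.4 TPM in Hif1a-intact libraries. Mapk11 was under 1 TPM in all 4, at 0.285 and 0.245 TPM in Hif1a-null libraries, against 0.839 and 0.836 TPM in Hif1a-intact libraries. The differences between paralogs were not tested.

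Other early growth response and Fos genes were near or at 0. Egr3 was listed at 0 in all 4 libraries and Egr4 in 3 of them. Egr2 read 0.555 and 0.126 TPM in Hif1a-null libraries, against 0.208 and 0.147 TPM in Hif1a-intact libraries, and Fosl1 0.269 and 0.491 TPM in Hif1a-null libraries, against 0.158 and 0.315 TPM in Hif1a-intact libraries.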
